A study of Mus musculus with 6 samples.

Results

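The transcripts of 10 genes, Fos, Fosb, Fosl1, Fosl2, Jun, Junb, Jund, Egr1, Egr2 and Egr3, were followed from mouse embryonic stem cells (ESCs) to epiblast-like cells (EpiLCs). These are the 10 rows with those gene names among the 24736 genes of the RNA-seq table, and each of the 10 passed the filter on low counts that left 14468 genes. They were chosen with their levels in these 6 libraries known, so the ESC and EpiLC values of the 10 genes are given as a description and carry no test.

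Both groups derive from 1 wild-type XY line, HM1 TetON, and hold 3 biological replicates each. The ESCs, labelled 0 h, were kept on mitotically inactivated embryonic fibroblasts in knockout DMEM that held LIF at 1000 U/ml and serum at 10%. Cells labelled 48 h, the EpiLCs, were dissociated with trypsin, separated from the feeder cells by plating and grown in N2B27 medium supplemented with bFGF at 10 ng/ml and LGK974, an inhibitor of WNT secretion, at 5 µM (FL medium), for which neither serum nor LIF is listed. Serum, LIF, feeder cells, FGF, LGK974 and time thus changed together, and their parts in any difference cannot be told apart. The study's methods state that data for statistical tests came from independent experiments.

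Immediate early genes are switched on within minutes of a stimulus, such as serum or a growth factor, by transcription factors that are already present in the cell. Signalling through the kinases ERK, JNK and p38 activates ternary complex factors of the ELK family, which sit with serum response factor (SRF) on CArG boxes, and CREB and ATF proteins, which bind cAMP response elements (CREs). FOS and JUN proteins pair through leucine zippers to form AP-1, in which FOS proteins need a JUN partner, whereas JUN proteins can also pair with each other or with ATF proteins. EGR proteins are zinc finger factors that bind GC-rich sites and are held back by the corepressors NAB1 and NAB2. In pluripotent cells this class of genes is known as a readout of recent FGF, LIF and serum signalling.

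The promoter windows of Fos, Fosb, Jun and Egr2 are shown as examples from each family that hold short sequences these pathways are known to use. Windows run from 250 bases before to 50 bases after each RefSeq start on GRCm38.p6 and were given for 7 members (Fos, Fosb, Fosl2, Jun, Junb, Jund and Egr2). Capitals mark matches on either strand to the CArG box, the CRE (TGACGTCA), the CRE core (TGACG, counted where it is not part of a full CRE), the AP-1 site (TGAGTCA), the AP-1 variant (TGACATCA), the EGR site (GCGGGGGCG) and the TATA core (TATAAA). The Fos window is chr12:85473640-85473939 on the plus strand, the Fosb window chr7:19309996-19310295 on the minus strand and the Jun window chr4:95052173-95052472 on the minus strand. The Egr2 window, chr10:67537619-67537918 on the plus strand, is the third of 5.
Fos: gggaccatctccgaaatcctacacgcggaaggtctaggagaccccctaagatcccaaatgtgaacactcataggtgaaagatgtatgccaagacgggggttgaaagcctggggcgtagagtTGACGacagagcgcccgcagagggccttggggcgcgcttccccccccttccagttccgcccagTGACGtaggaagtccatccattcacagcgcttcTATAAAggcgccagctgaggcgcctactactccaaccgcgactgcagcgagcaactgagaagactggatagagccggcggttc
Fosb: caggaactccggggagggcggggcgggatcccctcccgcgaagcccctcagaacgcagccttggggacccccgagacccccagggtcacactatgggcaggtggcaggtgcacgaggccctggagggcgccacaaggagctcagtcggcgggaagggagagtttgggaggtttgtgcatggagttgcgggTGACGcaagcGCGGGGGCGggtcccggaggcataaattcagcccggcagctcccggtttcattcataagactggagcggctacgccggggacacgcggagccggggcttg
Jun: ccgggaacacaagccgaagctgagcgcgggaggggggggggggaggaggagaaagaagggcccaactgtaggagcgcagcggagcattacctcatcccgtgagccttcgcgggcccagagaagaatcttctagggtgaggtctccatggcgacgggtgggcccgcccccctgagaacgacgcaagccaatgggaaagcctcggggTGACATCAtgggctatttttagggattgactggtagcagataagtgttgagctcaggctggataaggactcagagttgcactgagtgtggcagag
Egr2: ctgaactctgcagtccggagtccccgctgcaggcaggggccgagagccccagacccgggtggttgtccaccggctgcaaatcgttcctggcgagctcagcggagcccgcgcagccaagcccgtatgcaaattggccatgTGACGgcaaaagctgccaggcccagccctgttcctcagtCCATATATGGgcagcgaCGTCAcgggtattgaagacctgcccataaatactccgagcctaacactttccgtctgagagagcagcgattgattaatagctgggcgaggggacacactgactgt

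The Fos window held the CRE core at -129 and -66 and a TATA core at -33, counted from the start site. Fosb held 1 CRE core at -60 followed by an EGR site at -50. In Jun, the AP-1 variant TGACATCA lay at -45. Egr2 held a CArG box, CCATATATGG, at -72 between CRE cores at -111 and -55. Of the other Egr2 windows, the first held no match, the second held another CArG box, CCTTTTTTGG, at -72 and no CRE core, and the others overlap the window shown and hold its matches. Of the other members' windows, Junb held a CRE core at -106 and a TATA core at 1, Fosl2 an EGR site at -79, and Jund no match to these letters. The CRE core was thus in 4 of 7 members with a window, and in 23% of the 27025 genes in the promoter table, where a full CRE was counted too. The CArG box was in 1.81% of genes, the full CRE in 2.03%, the AP-1 site in 5.95%, its variant in 4.18%, the EGR site in 3.31% and the TATA core in 15.7%. A match is a run of letters and was not tested for binding, and the known serum response element of Fos lies upstream of its window.

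Totals of expected counts lay between 16967741 and 35096210 per library, at which 3 counts correspond to between 0.0855 and 0.177 CPM (counts scaled to the library total), a limit that covers counting error only. The labels were checked against marker genes. All 6 EpiLC markers tested rose in EpiLCs (edgeR quasi-likelihood test, Benjamini-Hochberg adjusted over all genes), and 7 of 8 ESC markers fell. ESC replicate 2 stood apart by its fibroblast markers, which summed to 1756 TPM, a transcript level scaled for transcript length and library. Their sum was 411 TPM in ESC replicate 1, 151 TPM in ESC replicate 3 and between 108 and 121 TPM in EpiLCs. Of 18 fibroblast markers, Lum was listed at 0 in 3 libraries and Fap in 4, and the others were detected in all 6. Primitive endoderm markers summed to between 32.4 and 56.1 TPM in ESCs and between 10.1 and 10.5 TPM in EpiLCs, and 4 of 6 of them fell. In bulk RNA, fewer cells of a type and less RNA per cell cannot be told apart.

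Levels of Fos and Fosb, the FOS genes with strong transactivation domains, were among the most reduced of the transcriptome in EpiLCs. Fos, at chr12:85473890-85477274, was at 409, 176 and 324 TPM in ESCs and at 2.77, 2.58 and 1.38 TPM in EpiLCs, with replicates given in the order of their numbers here and for the genes that follow. Every EpiLC library lay far below every ESC library, and the EpiLC mean was 0.741% of the ESC mean (2.24 ± 0.754 against 303 ± 118 TPM, SD, n = 3 each). The log2 fold change of Fos was -7.12 ± 0.43 (SE), the 13th lowest of 14468 genes.

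Fosb, at chr7:19302696-19310118, was at 211, 119 and 155 TPM in ESCs and at 0.840, 0.640 and 0.300 TPM in EpiLCs, which came from 52, 37 and 16 counts. Its log2 fold change of -8.14 ± 0.38 was the 9th lowest. The ratio of Fos to Fosb levels in TPM was 1.83 ± 0.323 in ESCs and 3.98 ± 0.653 in EpiLCs, without overlap between the groups. Reads of the truncated splice form of Fosb, which lacks the end of the protein, are counted together with those of the full form in a gene-level table.

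The FRA genes, Fosl1 and Fosl2, which encode FOS proteins that lack the strong transactivation domain, were low in both groups. Fosl1, at chr19:5447698-5455938, was at 7.34, 9.53 and 3.03 TPM in ESCs and at 5.61, 7.22 and 2.45 TPM in EpiLCs. The groups overlapped, with a log2 difference of -0.42 ± 0.50, although each EpiLC library lay below the ESC library of the same number. With replicate number added to the fit as a block, the difference was -0.42 ± 0.19. Fosl2, at chr5:32136472-32157840, was at 19.9, 30.4 and 7.90 TPM in ESCs and at 5.39, 5.03 and 2.66 TPM in EpiLCs. Its groups did not overlap, with a log2 fold change of -2.19 ± 0.49, and without ESC replicate 2 the value was -1.71.

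Among the JUN genes, Jun and Junb differed between the groups by like amounts and Jund by little. Jun, the AP-1 subunit that JNK phosphorylates, lies at chr4:95049036-95052222 and was at 162, 81.3 and 81.9 TPM in ESCs and at 25.5, 26.1 and 12.7 TPM in EpiLCs. Junb, a weaker activator than Jun, lies at chr8:84976909-84978748 and was at 116, 105 and 66.5 TPM in ESCs and at 22.5, 23.8 and 10.2 TPM in EpiLCs. The log2 fold changes were -2.39 ± 0.37 for Jun and -2.40 ± 0.35 for Junb, and the EpiLC means were 19.8% and 19.6% of the ESC means. Jund, a JUN gene known for steady expression in resting cells, lies at chr8:70697739-70700616. It was at 88.8, 81.9 and 84.9 TPM in ESCs and at 69.7, 89.1 and 57.6 TPM in EpiLCs, and the highest of the 6 values was an EpiLC library. Its log2 difference was -0.29 ± 0.14, and its EpiLC mean was 84.6% of the ESC mean.

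**Figure D1:**
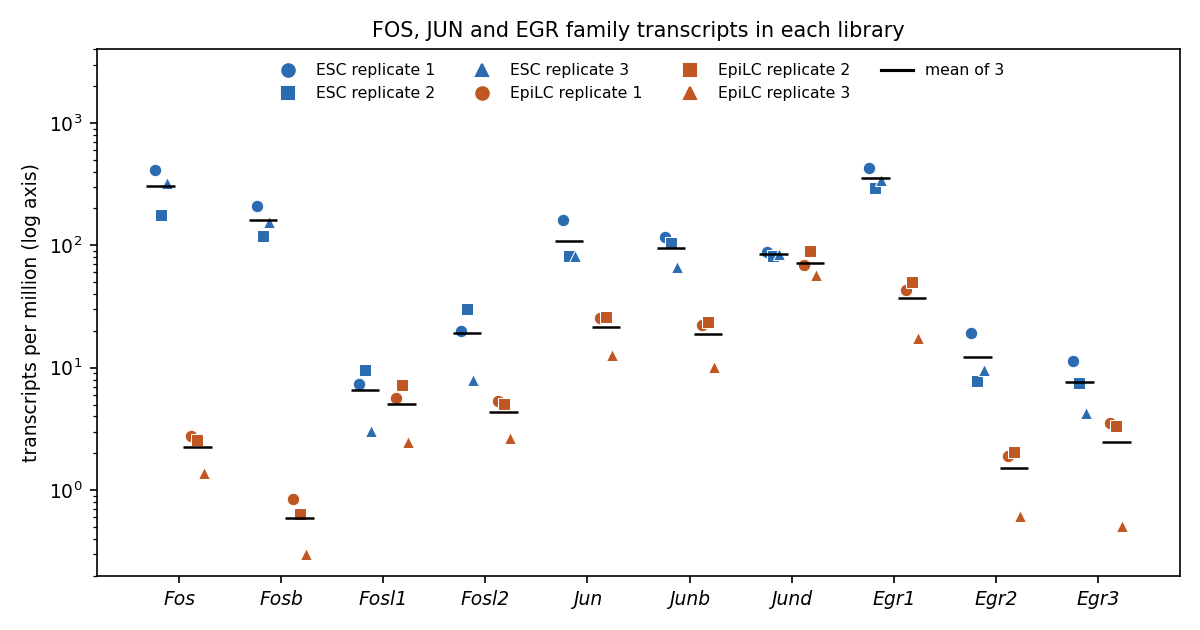
Level of each of the 10 genes in TPM on a log axis, with 1 point per library (blue for ESC, orange for EpiLC, with circles, squares and triangles for replicates 1, 2 and 3) and a black line at the mean of 3. Fos and Fosb lay above 100 TPM in ESCs and below 3 TPM in EpiLCs, Jund and Fosl1 overlapped between the groups, and the EpiLC replicate 3 triangle was the lowest EpiLC point for every gene.

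All 3 EGR genes had lower levels in every EpiLC library than in any ESC library, as had 25.6% of all genes. Egr1, a direct target of ERK and the SRF complex, was the most abundant member in ESCs at 430, 295 and 340 TPM, and was at 43.1, 50.3 and 17.5 TPM in EpiLCs. This gave a log2 fold change of -3.32 ± 0.38, with 10.4% of the ESC mean left. Egr2, known for its role in hindbrain and Schwann cells, lies at chr10:67534469-67542188 and was at 19.3, 7.85 and 9.64 TPM in ESCs and at 1.89, 2.06 and 0.610 TPM in EpiLCs, a log2 fold change of -3.06 ± 0.52. Egr3, at chr14:70077317-70082613, was at 11.3, 7.53 and 4.28 TPM in ESCs and at 3.51, 3.36 and 0.510 TPM in EpiLCs, a log2 fold change of -1.69 ± 0.66. For Egr3 the gap between the groups was narrow, since the lowest ESC library (4.28 TPM) lay close to the highest EpiLC library (3.51 TPM).

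All 10 log2 fold changes were below 0 and 8 were below -1, with a median of -2.40 against -0.0017 over all genes tested. In 8 of 10 members every EpiLC library lay below every ESC library, as it did for 25.6% of all genes. Since the members were chosen on this contrast, nothing is read from that count. It was 8 or 9 when any 1 library was left out. Over all genes, 22.8% were called lower in EpiLCs and 22.6% higher at an adjusted p of 0.05.

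The order of the members by level changed with the group. In ESCs, mean levels ran from Egr1 (355 TPM) over Fos (303), Fosb (162), Jun (108), Junb (95.9) and Jund (85.2) to Fosl2 (19.4), Egr2 (12.3), Egr3 (7.71) and Fosl1 (6.63). The ranges overlapped in 8 of 9 neighbouring pairs, and only Jund and Fosl2 were separate. In EpiLCs, mean levels ran from Jund (72.1 TPM) over Egr1 (36.9), Jun (21.4) and Junb (18.8) to Fosl1 (5.09), Fosl2 (4.36), Egr3 (2.46), Fos (2.24), Egr2 (1.52) and Fosb (0.593). There, Jund was separate from Egr1 and Junb from Fosl1, and the other 7 of 9 pairs overlapped.

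The make-up of each family was then compared as the share of its summed TPM, which are scaled for transcript length. The FOS family summed to 491 ± 156 TPM in ESCs and to 12.3 ± 4.78 TPM in EpiLCs (SD, n = 3). Fos and Fosb together held 93.9 ± 5.12% of that sum in ESCs and 23.4 ± 2.26% in EpiLCs, while Fosl1 went from 1.53 ± 1.17% to 40.4 ± 5.57% and Fosl2 from 4.58 ± 3.95% to 36.2 ± 3.38%. The FOS transcripts of EpiLCs were thus mainly those of Fosl1 and Fosl2, although neither had a higher level there in TPM than in ESCs. Fosl2 exceeded Fosl1 by 2.83 ± 0.312 times in ESCs and was at 0.914 ± 0.199 times its level in EpiLCs.

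The JUN family sum was 289 ± 69.0 TPM in ESCs and 112 ± 29.6 TPM in EpiLCs. Jund made up 24.2, 30.5 and 36.4% of it in the ESC replicates and 59.2, 64.1 and 71.6% in the EpiLC replicates. Jun went from 36.5 ± 7.05% to 18.7 ± 2.95% and Junb from 33.1 ± 5.53% to 16.3 ± 3.30%. The balance between the families differed too, since FOS transcripts exceeded JUN transcripts by 1.70 ± 0.431 times in ESCs and were at 0.107 ± 0.0203 times their level in EpiLCs. Egr1 dominated its family in both groups, at 94.8 ± 1.36% of a sum of 375 ± 77.6 TPM in ESCs and at 91.0 ± 2.64% of 40.9 ± 19.7 TPM in EpiLCs.

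**Figure D2:**
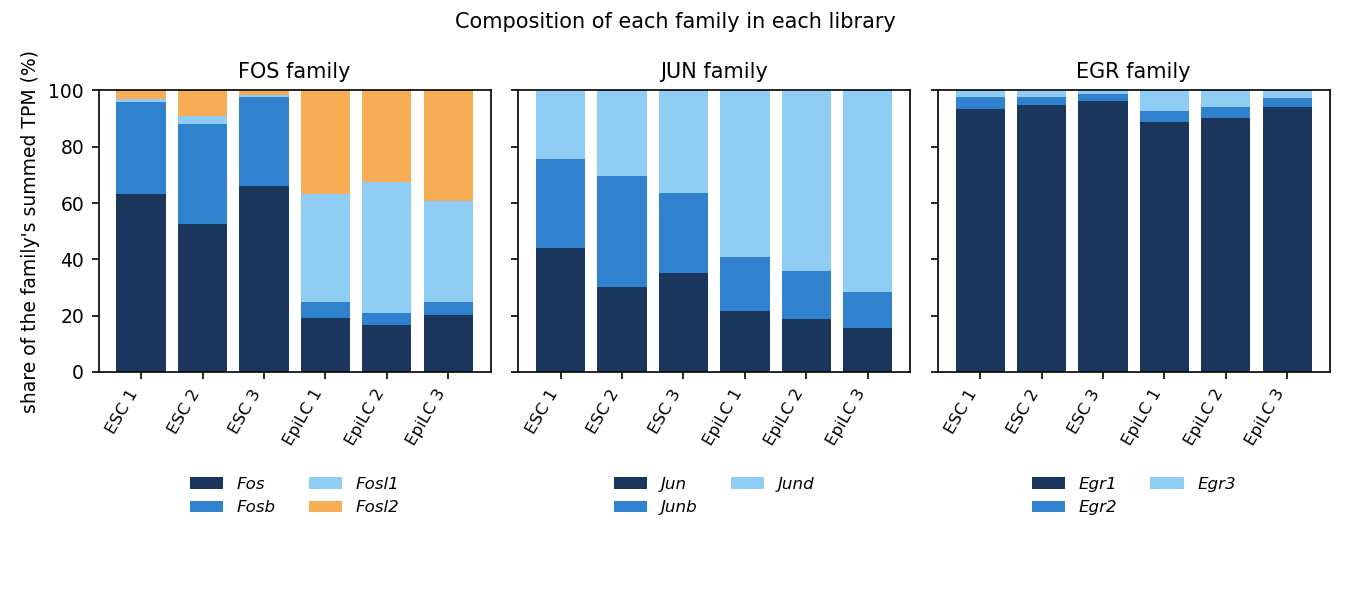
Share of each gene in the summed TPM of its family, in percent, with 1 stacked bar per library for the FOS, JUN and EGR families. Fos and Fosb made up over 88% of the FOS bars in ESCs and under 25% in EpiLCs, Jund was the largest part of each EpiLC bar of the JUN family, and Egr1 made up at least 88.9% of every EGR bar.

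The members shared a low library within EpiLCs, a pattern chosen for description after its values were seen, whereas within ESCs their highest library differed. All 10 were lowest in EpiLC replicate 3 among the EpiLC libraries, as were 45.2% of all genes. In 7 of 10 the level there was below 50% of the mean of EpiLC replicates 1 and 2, as it was for 2.53% of all genes. Egr3 was at 14.8% of that mean, Egr2 at 30.9%, Egr1 at 37.4%, Fosl1 at 38.2%, Fosb at 40.5%, Junb at 44.0% and Jun at 49.2%, whereas Fosl2 was at 51.1%, Fos at 51.6% and Jund at 72.5%. On CPM with TMM factors the count was 6 of 10. The group with 3 libraries allows no test of a single library.

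The other lists were set beside this. The median difference of log2 CPM from the mean of the other EpiLC libraries was -1.16 over the 10 members, -0.63 over 4 EGR cofactors, -0.50 over 16 fibroblast markers, -0.46 over 13 AP-1 targets, -0.27 over 42 other immediate early genes, -0.04 over 13 ERK output genes and -0.0081 over all genes. Levels below 50% of the mean of the other EpiLC libraries were found for 4 of 13 AP-1 targets, 4 of 16 fibroblast markers and 2 of 42 other immediate early genes, among which Ptgs2 (-1.69) and Npas4 (-1.01) had the lowest differences of log2 CPM. Nab2, which encodes an EGR corepressor and is itself known as an EGR target, was at 16.0, 22.1 and 5.66 TPM in EpiLCs. That replicate had 30683164 counts, fibroblast markers at 108 TPM and heat shock genes of the dissociation response at 10807 TPM, against 9823 and 10187 TPM in the other EpiLC libraries. It also had more of the naive pluripotency factor Nanog, at 22.5 TPM against 7.72 and 5.95 TPM, and of the endoderm factor Foxa2, at 2.05 TPM against 0.460 and 0.700 TPM. Their part in the members' lower levels was not tested.

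In ESCs, 8 of 10 members were highest in replicate 1, as were 28.0% of all genes. In contrast, Fosl1 and Fosl2 had their highest level in replicate 2 and their lowest in replicate 3. That order was shown by 20% of members, near the 26.0% of all genes. This is the order of the fibroblast markers, of which 14 of 16 tested followed it, and of 11 of 13 AP-1 target genes tested. Between ESC replicates 2 and 3 the log2 difference was 1.60 for Fosl1, 1.92 for Fosl2, 0.79 for Egr3 and 0.64 for Junb. For the remaining members it lay between -0.91 (Fos) and -0.03 (Jun). Junb and Egr3 were thus also lowest in replicate 3. The part of feeder cells in the Fosl1 and Fosl2 levels was not tested.

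**Figure D3:**
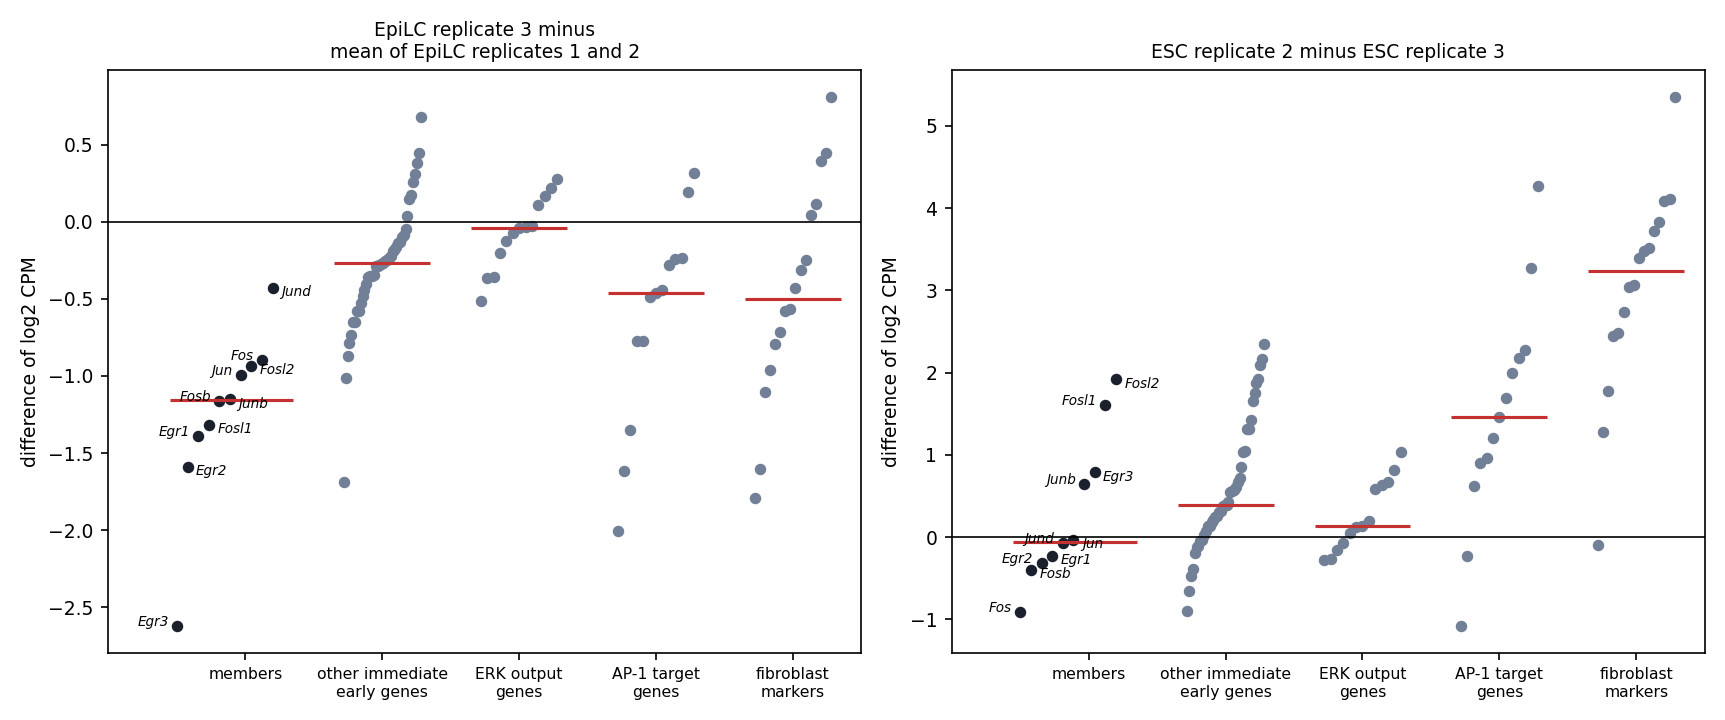
Differences of log2 CPM between libraries of the same group, with 1 point per gene and a red line at the median of each gene list. The left panel shows EpiLC replicate 3 minus the mean of EpiLC replicates 1 and 2, where all 10 members lay below 0, and the right panel shows ESC replicate 2 minus ESC replicate 3, where Fosl1 and Fosl2 lay highest among the members and the fibroblast markers highest among the lists.

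Other immediate early genes moved in the same direction for the most part. Of 42 tested, 28 fell in EpiLCs, 2 rose and 12 did not pass the test, with a median log2 fold change of -1.27. Of all genes, 22.8% were called lower and 22.6% higher, shares to set beside this list and those that follow. Klf4 had the lowest log2 fold change of the 42, with 205, 182 and 249 TPM in ESCs and 1.94, 3.17 and 2.01 TPM in EpiLCs (log2 fold change -6.53 ± 0.24, adjusted p = 1.93e-05). Klf4 and Klf2 (-5.41 ± 0.21, adjusted p = 2.5e-05) are also naive pluripotency factors, and Socs3 (-4.13 ± 0.23, adjusted p = 8.2e-05) is a feedback inhibitor induced by LIF through STAT3. Nr4a3, an orphan nuclear receptor, fell by 4.63 ± 0.74 on the log2 scale (adjusted p = 0.00291) from a low level of 0.960 to 5.10 TPM in ESCs, and by 3.73 without ESC replicate 2.

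Ier2, a small immediate early factor, fell with little spread, from 233, 238 and 205 TPM to 106, 111 and 103 TPM (log2 fold change -1.13 ± 0.07, adjusted p = 9.3e-05). It did not share the low values of the members in EpiLC replicate 3. Egr4, the remaining EGR gene, was at 4.98, 1.64 and 1.86 TPM in ESCs and at 1.59, 1.53 and 1.04 TPM in EpiLCs and did not pass the test (-1.08 ± 0.46, adjusted p = 0.0955), although it did without ESC replicate 2 (-1.34, adjusted p = 0.0412), and its value was -0.42 without ESC replicate 1.

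The zipper partners of AP-1 were split. Of 14 tested, 6 fell, 2 rose and 6 did not pass the test, with a median of -0.50. Atf3, a stress-induced repressor that pairs with JUN proteins, was at 64.4, 49.6 and 27.1 TPM in ESCs and at 9.04, 9.12 and 4.85 TPM in EpiLCs (log2 fold change -2.66 ± 0.37, adjusted p = 0.00164). Of the small MAF genes, Maff (log2 fold change -1.28 ± 0.24, adjusted p = 0.00537) and Mafk (-1.19 ± 0.26, adjusted p = 0.00941) fell, while Mafg had a log2 difference of -0.0035 ± 0.0733 (adjusted p = 0.973). The BACH genes went opposite ways, with a fall of Bach2 (-1.22 ± 0.18, adjusted p = 0.00197) and a small rise of Bach1 (0.17 ± 0.05, adjusted p = 0.0369). Jdp2, which represses AP-1 as a JUN partner, had a log2 difference of -0.82 ± 0.27 (adjusted p = 0.0455), and this call was lost in 9 of the alternatives tried. The 2 rises among partners fell to 0 without ESC replicate 2 or without any 1 EpiLC library.

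Of the 4 EGR cofactors and relatives tested, 1 rose and 3 did not pass the test, with a median of -0.21. Wt1, a zinc finger factor with an EGR-like binding site, rose from 2.11 ± 0.699 TPM to 5.79 ± 0.317 TPM (SD), a log2 fold change of 1.42 ± 0.26 (adjusted p = 0.0054). Nab1, at 8.45 to 14.7 TPM in ESCs and 7.98 to 14.3 TPM in EpiLCs, did not differ beyond its error (log2 difference 0.00 ± 0.26, adjusted p = 1). Nab2 was at 17.8, 23.1 and 15.1 TPM in ESCs and did not pass the test either (-0.42 ± 0.44, adjusted p = 0.464).

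Most kinases and factors upstream of the members did not pass the test. Of 32 tested, 4 were lower in EpiLCs, 10 rose and 18 did not pass, with a median log2 fold change of 0.09. Of all genes, 22.8% were called lower and 22.6% higher. The ERK gene Mapk3 was at 108 to 140 TPM over the 6 libraries and did not pass the test (-0.09 ± 0.13, adjusted p = 0.602). Srf was at 50.1 to 54.5 TPM in ESCs and 61.0 to 67.5 TPM in EpiLCs (0.24 ± 0.06, adjusted p = 0.0193). The Srf call was lost without EpiLC replicate 1 (adjusted p = 0.0565), without EpiLC replicate 2 (0.072) and with replicate number as a block (0.0523). The ternary complex factors Elk1 (-0.15 ± 0.09, adjusted p = 0.197) and Elk4 (-0.23 ± 0.12, adjusted p = 0.166) did not pass the test. Elk3, their repressive relative, fell by 1.74 ± 0.48 (adjusted p = 0.0241) from 6.58, 15.3 and 3.72 TPM in ESCs, in the order of the fibroblast markers, and did not pass without any 1 of the EpiLC libraries, and its value was -1.02 without ESC replicate 2. Creb1, which encodes a factor that binds the CRE, rose by 0.79 ± 0.11 (adjusted p = 0.0019). Mapk10, the neural JNK gene, rose from at most 0.130 TPM to between 1.46 and 1.75 TPM (3.99 ± 0.36, adjusted p = 0.000328), and Rps6ka2, an RSK kinase gene, rose by 0.49 ± 0.15 (adjusted p = 0.034), a call that was lost without ESC replicate 1 and without any 1 of the EpiLC libraries. Without EpiLC replicate 1 the counts were 1 lower and 4 higher, and without EpiLC replicate 2 they were 2 and 6.

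Genes known as transcriptional outputs of ERK went the other way in part. Of 13 tested, 6 rose, 3 fell and 4 did not pass the test, with a median of 0.30. The ERK phosphatase genes Dusp6, at 75.0, 54.5 and 48.9 TPM in ESCs and 139, 153 and 112 TPM in EpiLCs (log2 fold change 1.13 ± 0.18, adjusted p = 0.00265), and Dusp4 (1.99 ± 0.22, adjusted p = 0.000711) rose. Spred3, a RAS pathway inhibitor, rose from between 3.37 and 7.06 TPM to between 24.5 and 25.9 TPM (2.23 ± 0.24, adjusted p = 0.000604). Dusp5, another ERK phosphatase gene, fell by 1.12 ± 0.29 (adjusted p = 0.0192), a call that was lost without ESC replicate 1 or EpiLC replicates 1 or 3. Fos and Egr1 thus had lower levels in the same EpiLC libraries in which Dusp6 and Dusp4 had higher levels.

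Of 13 AP-1 target genes tested, 7 fell, 1 rose and 5 did not pass the test, with a median of -2.07. Mmp9, a matrix metalloproteinase, was at 3.22, 3.78 and 1.97 TPM in ESCs and at 0.420, 0.240 and 0.220 TPM in EpiLCs (-3.37 ± 0.38, adjusted p = 0.000731). Il6, a cytokine, was at 3.80, 5.90 and 2.46 TPM in ESCs and came from 0, 1 and 0 counts in EpiLCs (adjusted p = 0.000515). Timp1, which encodes an inhibitor of matrix metalloproteinases, was at 74.1, 281 and 56.8 TPM in ESCs (-2.50 ± 0.63, adjusted p = 0.0168) and followed the fibroblast markers across ESC replicates, and its call was lost without EpiLC replicate 1 or without EpiLC replicate 3. Col1a1, the collagen gene of fibroblasts, was at 90.5, 489 and 28.3 TPM in ESCs and at 6.63, 13.9 and 3.08 TPM in EpiLCs (-4.74 ± 1.14, adjusted p = 0.0144), and 8 of 16 fibroblast markers tested fell, or 4 without EpiLC replicate 1 or without EpiLC replicate 3, where the Col1a1 call was lost too. Without ESC replicate 2 the log2 fold change was -2.97 for Col1a1 and -1.44 for Timp1, and without EpiLC replicate 2 it was -5.41 for Col1a1. The number of AP-1 targets that fell was 6 without ESC replicate 2, 11 without ESC replicate 3, and 3 without EpiLC replicate 1 or without EpiLC replicate 3, and the part of feeder cells in it was not tested.

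**Figure D4:**
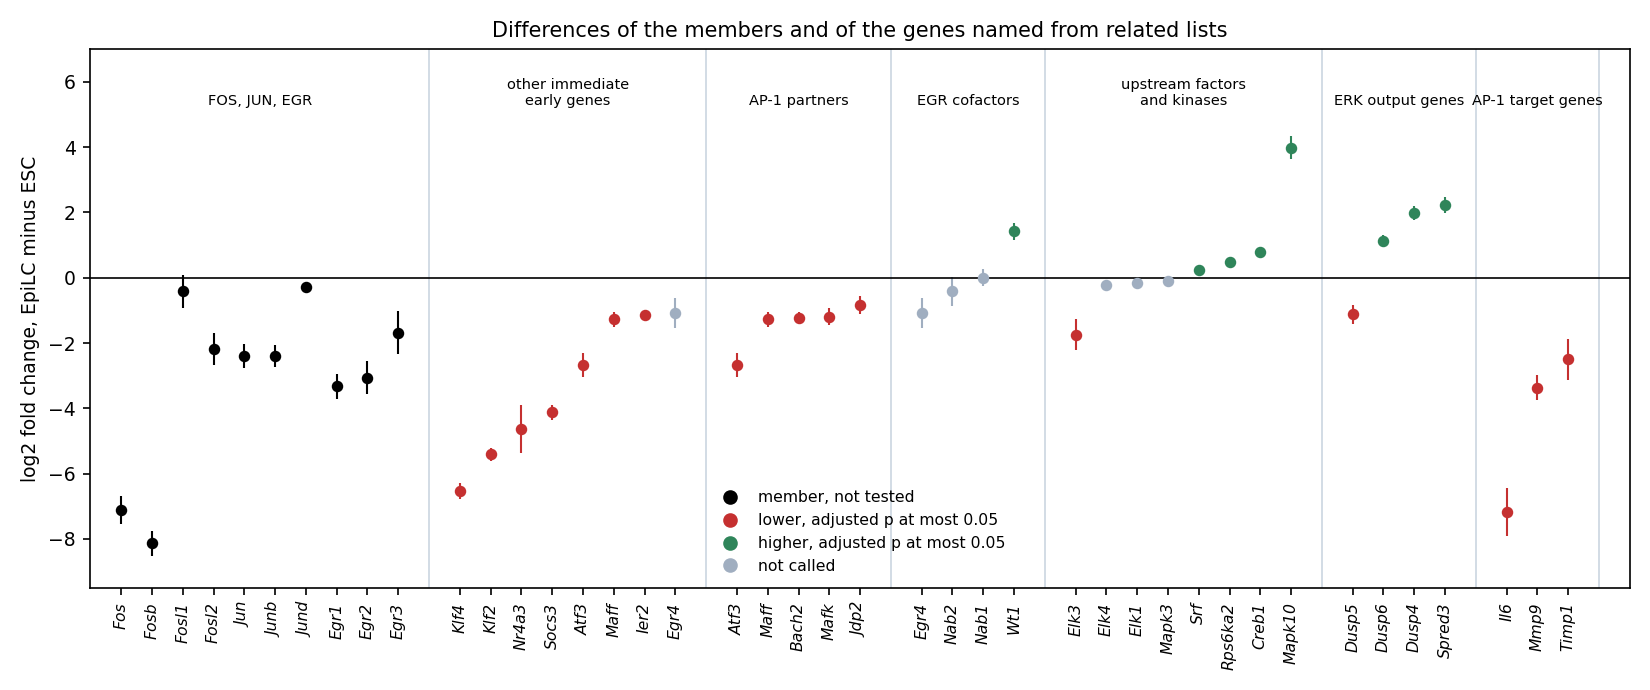
Log2 fold change of EpiLCs over ESCs with its standard error (bars) for the 10 members (black, not tested) and for genes named from 6 related lists, coloured by whether they fell, rose or did not pass the test. Fos and Fosb lay at -7.12 and -8.14, Mapk3, Elk1 and Elk4 near 0, and Dusp4, Dusp6 and Spred3 above 1.

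Genes of the heat shock response, which cell dissociation can also induce together with FOS and JUN, were set beside the members. Of 11 tested, 4 fell, 1 rose and 6 did not pass the test, with a median of -0.19 and a summed level between 11262 and 11809 TPM in ESCs and between 9823 and 10807 TPM in EpiLCs. The chaperone genes Hspb1 (-1.66 ± 0.22, adjusted p = 0.00137), Dnajb4 (-1.64 ± 0.39, adjusted p = 0.0139) and Hsp90aa1 (-0.30 ± 0.09, adjusted p = 0.0338) fell and Dnaja1 rose (0.27 ± 0.09, adjusted p = 0.0404). The rise of Dnaja1 was lost with replicate number as a block, without ESC replicate 1 and without any 1 of the EpiLC libraries. The fall of Hsp90aa1 was lost with upper-quartile scaling, with limma on log2(TPM + 1) and without ESC replicates 1 or 3 or EpiLC replicates 1 or 2. That of Dnajb4 was lost without EpiLC replicate 2. The 4 falls became 2 with upper-quartile scaling, without ESC replicate 1 or without EpiLC replicate 1, and 1 without EpiLC replicate 2. By the study's methods, differentiating cells had no medium change before 48 h. The time between the last feeding of the ESCs and their lysis is not given in the sources used here, and its part in the members' levels was not tested.

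Genes whose log2 CPM followed a member most closely over the 6 libraries were found by Pearson's r, which is set largely by the gap between the groups and is given without a test. For Fos these were Wasf2 (r = 0.9994), Hexa (0.9988) and Sdccag8 (0.9988), for Jun they were Mark4 (0.9994), Ptafr (0.9975) and Brd2 (0.9972), and for Egr1 they were Aff4 (0.9987), Tab3 (0.9974) and Igf2r (0.9963). Apart from Ptafr (log2 fold change -3.83), their log2 fold changes lay between -1.05 and -0.25. Wasf2, an actin regulator, was at 75.2, 70.8 and 73.2 TPM in ESCs and 49.2, 50.5 and 46.3 TPM in EpiLCs, with the same order of replicates within ESCs as Fos. Brd2, a bromodomain protein, was at 241, 223 and 222 TPM in ESCs and 201, 209 and 190 TPM in EpiLCs.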

How the data were processed

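Poly(A) RNA was sequenced as 76 nt single-end, strand-specific reads from 3 ESC and 3 EpiLC libraries. The authors trimmed reads with cutadapt 1.16, mapped them with STAR 2.5.2a and quantified genes with RSEM 1.3.0 on mm10 RefSeq annotation, and the submitters' notes also name DESeq2 1.16.1. The authors deposited expected counts, which are not normalized and share ambiguous reads between genes, and TPM, which are scaled for transcript length and library. Culture methods give 72 h for EpiLCs, and the labels, followed here, give 48 h.

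Expected counts were rounded and fitted with edgeR 4.0.16 (R 4.3.3, limma 3.58.1), with TMM factors, filterByExpr, the quasi-likelihood test and Benjamini-Hochberg adjustment over 14468 genes, at a threshold of 0.05. CPM used a prior count of 2 on the log2 scale. On simulated counts for 14311 genes, of which 198 were changed, the test recovered 91% of 4-fold and 62.2% of 2-fold changes and made 10 false calls. In the data far more genes differed, with 22.8% called lower and 22.6% higher, so these rates may not carry over to it. Promoter windows and gene positions came from RefSeq and GENCODE on GRCm38.p6.

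The members, the gene lists and the rule for naming genes were chosen with earlier results of these data known. Named were all members, from each other list up to 4 called genes with the largest change and a mean of at least 1 CPM, 14 genes fixed by name, and the 3 non-members most correlated with Fos, Jun and Egr1. Not every gene that this rule names is reported here, and some genes outside it are. Alternatives were upper-quartile scaling, DESeq2 1.42.0, no filter, 10 counts in every library, replicate number as a block, leaving out each library and, for family shares, CPM. Limma on log2(TPM + 1) and log2(TPM + 0.1), other scales for EpiLC replicate 3, and counts of non-overlapping members without each library were added after the data were seen.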

Additional observations from a re-analysis of the deposited data

How the results depend on the processing

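The median log2 fold change of the 10 members lay between -2.58 and -2.11 when 1 library was left out, and each member kept a value below 0 under every alternative tried. With the replicate number as a block, that median was -2.42. Over all genes, same-numbered libraries deviated together with r = 0.007, 0.186 and 0.170, which does not settle whether the numbers pair the samples. The block lowered the standard error of every member. It went from 0.50 to 0.19 for Fosl1 and from 0.35 to 0.13 for Junb, and changed least for Jund (0.142 to 0.136). Under this block, calls of higher levels numbered 1 of the other immediate early genes, 1 of the AP-1 partners and 0 of the heat shock genes, Nab1 was at -0.0084, and the calls of Srf (adjusted p = 0.0523), Dnaja1 (0.0619) and Jdp2 (0.0824) were lost. AP-1 partners called higher numbered 1 with no filter and 1 with 10 counts in every library. Heat shock genes called lower numbered 2 with upper-quartile scaling and 2 with limma on log2(TPM + 1), and those called higher 2 with limma at either pseudocount. Nab1 was at -0.0106 with DESeq2. Fos and Fosb held 16.6% of the FOS family in EpiLCs by CPM, which are not scaled for length, against 23.4% by TPM. In log2(TPM + 1), Fos was at -6.49 and Fosb at -6.65, since a pseudocount shortens the change of low genes.

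Leaving out 1 library left 2 samples in 1 group. All genes called lower then numbered between 2100 and 3609, and higher between 2144 and 3572. Called lower were 4 to 12 fibroblast markers, 3 to 11 AP-1 targets, 1 to 6 upstream factors, 1 to 6 heat shock genes and 0 to 1 EGR cofactors. Called higher were 4 to 11 upstream factors, 0 to 3 other immediate early genes, and 0 to 1 each of AP-1 partners, AP-1 targets, heat shock genes and fibroblast markers. Uncalled genes near 0 changed sign, with Nab1 between -0.16 and 0.23 and Mapk3 between -0.18 and 0.048. Of the other values, 43 calls of named genes were lost and 1 was gained under single alternatives, and the cause was not tested.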
